A study of Mus musculus with 6 samples.

Results

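The 7 genes described here encode the brain cannabinoid receptor and the main enzymes that make and break down its lipid ligands: Cnr1, Dagla, Daglb, Mgll, Faah, Napepld and Abhd6. They were chosen by name, with earlier results of these data known. Every probe set annotated to exactly 1 of these symbols was taken. A probe set is a group of short probes on the array that reads 1 transcript or a family of transcripts. This gave 13 of 45101 probe sets on the array. A level filter (log2 value above 4 on at least 3 of the 6 arrays) kept 12 of them, at least 1 for each gene, among 25381 probe sets tested. The probe set that did not pass was 1 of 4 for Mgll.

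Transcript levels were read on Affymetrix Mouse430_2 arrays in dissected medial prefrontal cortex from male 129S1/SvImJ mice, an inbred strain, at 8 to 10 weeks of age. In both groups the tissue was collected 2 h after fear extinction training, so the mice share that training and no untrained mice were analysed here. The control group was 3 mice on the control diet (mice 1, 5 and 9). The other group was 3 mice (3, 7 and 11) on a diet labelled ZnR, which the labels also call a Zn diet without saying what it contains. The comparison asks how transcript levels differed between the diets.

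Endocannabinoids are lipids that neurons release from their membranes on demand and that act backwards across the synapse. The main ones are 2-arachidonoylglycerol, made from diacylglycerol by the enzymes that Dagla and Daglb encode, and anandamide, which the enzyme encoded by Napepld, a zinc-dependent hydrolase, can release from a membrane phospholipid. Both act on the CB1 receptor, encoded by Cnr1, on axon terminals, where it lowers transmitter release. Mgll and Abhd6 encode hydrolases of 2-arachidonoylglycerol and Faah encodes the hydrolase of anandamide. In the forebrain this system is known for its part in the extinction of learned fear.

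Faah fell in ZnR mice, by 1.48-fold on the probe set that passed the test, and its other probe set was 1.40-fold lower. Daglb and the dimmer probe set of Cnr1 were 1.38-fold and 1.53-fold lower on average, both just outside the threshold of 0.05 on the adjusted p. The far brighter probe set of Cnr1 was 1.21-fold lower and did not pass (limma adjusted p = 0.35). Dagla was 1.25-fold lower and did not pass. Mgll and Napepld had differences close to 0. Of the 12 tested probe sets 1 passed (8.33%), where 1.47% of all probe sets tested passed in either direction and 1.01% passed as lower. None passed when any 1 mouse was left out. The 12 probe sets read 7 genes in the same 6 mice, so they are not separate readings of the diets. On 11 of the 12 the ZnR mean was below the control mean, as on 46.4% of all probe sets tested. The median log2 difference of the 12 was -0.23, beside 0.02 over all probe sets tested. The diets did not overlap on 7 of the 12, all of them lower in ZnR mice. That is 58.3%, where 23.7% of all probe sets had no overlap in either direction and 10.6% had none with ZnR lower. For 4 of the 7 genes every tested probe set separated the diets, but the share of all genes that do so was not computed. Of these 4, Dagla and Daglb had 1 tested probe set each. An unadjusted p under 0.05 was reached by 6 of the 12, beside 17% of all probe sets (7.9% as lower). The 7 genes were chosen with earlier results of these data known, so these shares describe the 12 probe sets and test nothing.

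**Figure D1:**
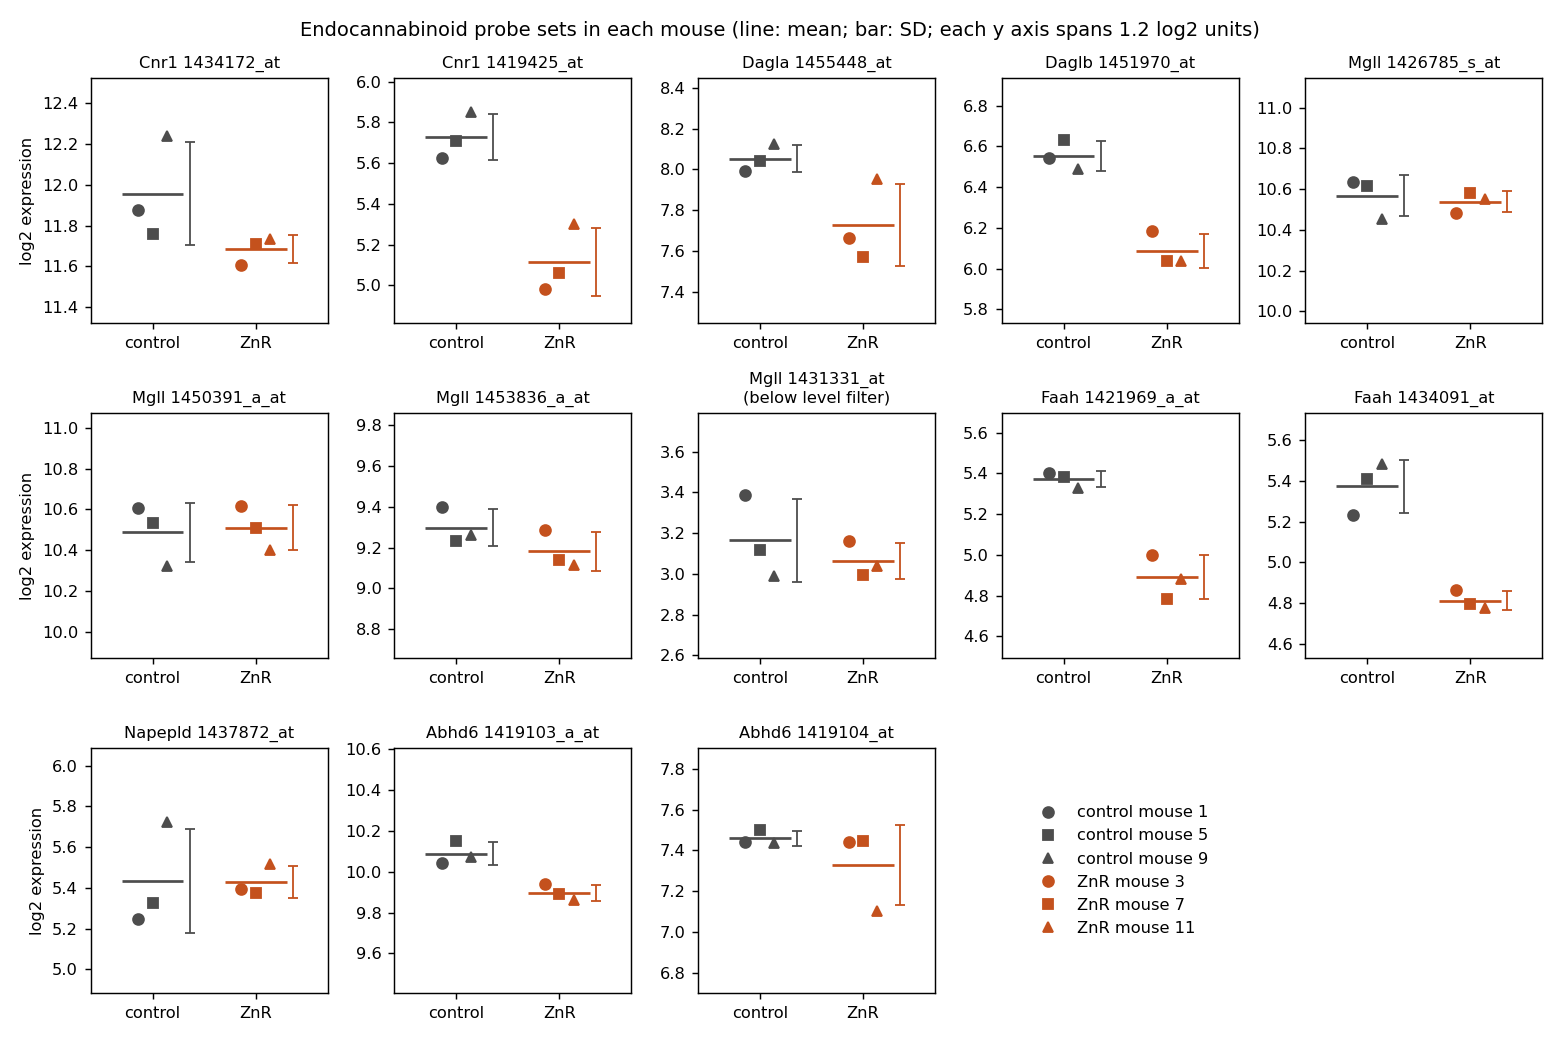
Log2 expression (y axis, 1.2 log2 units in every panel) of the 13 probe sets in each of 3 control (grey) and 3 ZnR (orange) mice, with the mean as a line and the SD as a bar beside it. Both Faah probe sets, Daglb and the dimmer Cnr1 probe set (1419425_at) separate the diets, while the Mgll and Napepld probe sets overlap.

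Cnr1, the gene of the receptor, was read by a bright and a dim probe set. The dim one, 1419425_at, measured 5.62, 5.71 and 5.85 log2 units in control mice 1, 5 and 9, and 4.98, 5.06 and 5.30 in ZnR mice 3, 7 and 11. All 3 ZnR mice were below all 3 controls, with means of 5.12 ± 0.17 against 5.73 ± 0.11 (SD, n = 3 per diet). The log2 difference was -0.61 ± 0.11 (SE, 95% confidence interval -0.88 to -0.35), and limma's adjusted p was 0.0513. The bright one, 1434172_at, measured 11.88, 11.76 and 12.24 in control mice and 11.61, 11.71 and 11.73 in ZnR mice. The diets did not overlap here either, but the gap between the lowest control (mouse 5) and the highest ZnR mouse (mouse 11) was narrow, and control mouse 9 stood above the other controls. Its log2 difference was -0.27 ± 0.13 (SE, 95% interval -0.58 to 0.04, adjusted p = 0.35), and it was -0.13 without control mouse 9. The difference by diet was 0.34 log2 units smaller on the bright probe set than on the dim one. The exact permutation test of that gap over the 6 mice gave 2-sided p = 0.1, the smallest this design allows (0.5 after Benjamini-Hochberg adjustment over 5 such pairs of probe sets of 1 gene).

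Among the synthesis enzymes, Daglb gave the clearer separation. It measured 6.54, 6.63 and 6.49 log2 units in control mice 1, 5 and 9, and 6.19, 6.04 and 6.04 in ZnR mice 3, 7 and 11. Every ZnR mouse was below every control. The means were 6.55 ± 0.07 and 6.09 ± 0.08 (SD, n = 3 per diet), a log2 difference of -0.47 ± 0.09 (SE, 95% interval -0.67 to -0.26) with limma adjusted p = 0.0525. Dagla, which encodes the form that makes most of the 2-arachidonoylglycerol used at adult brain synapses, measured 7.99, 8.04 and 8.12 in control mice and 7.66, 7.57 and 7.95 in ZnR mice. ZnR mouse 11 lay just under the lowest control, and the other ZnR mice lay further below. The log2 difference was -0.32 ± 0.12 (SE, 95% interval -0.59 to -0.05, adjusted p = 0.213), and it was -0.44 without ZnR mouse 11.

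Napepld showed no shift between the diets. It measured 5.25, 5.33 and 5.72 in control mice 1, 5 and 9 and 5.39, 5.37 and 5.52 in ZnR mice 3, 7 and 11. The ZnR mice lay inside the control range, which control mouse 9 widened. The log2 difference was -0.0043 ± 0.13 (SE, adjusted p = 0.993), with a 95% interval of -0.32 to 0.31. A shift within that interval in either direction was not detectable with 3 mice per diet. The interval is not adjusted for the number of probe sets tested, so larger shifts could also miss the threshold. The dim Cnr1 probe set, at -0.61 ± 0.11 (SE), missed it (limma adjusted p = 0.0513). Without control mouse 9 the log2 difference of Napepld was 0.14.

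Of the enzymes of breakdown, Faah was the one with a probe set past the threshold. Probe set 1434091_at measured 5.23, 5.41 and 5.48 log2 units in control mice 1, 5 and 9, and 4.87, 4.79 and 4.78 in ZnR mice 3, 7 and 11. The ZnR mice were tightly grouped, and all lay below the lowest control, mouse 1. The means were 5.37 ± 0.13 and 4.81 ± 0.05 (SD, n = 3 per diet), a log2 difference of -0.56 ± 0.09 (SE, 95% interval -0.78 to -0.34) with limma adjusted p = 0.0423, ranked 266 by p among all 25381 probe sets. Probe set 1421969_a_at measured 5.40, 5.38 and 5.33 in control mice and 5.001, 4.78 and 4.88 in ZnR mice. It too separated the diets completely, with a log2 difference of -0.48 ± 0.09 (SE, 95% interval -0.69 to -0.27) and adjusted p = 0.0513. The 2 probe sets differed in their change by 0.08 log2 units (exact permutation p = 0.6 over the 6 mice, 0.75 after adjustment over the 5 pairs). Both signals lie about 1 log2 unit above the level filter, where this normalization can compress differences. The call on 1434091_at rested on all 6 mice. Leaving out control mouse 1, 5 or 9 gave an adjusted p of 0.0555, 0.156 and 0.0967 in that order. Leaving out ZnR mouse 3, 7 or 11 gave 0.114, 0.0967 and 0.129 in that order. The log2 difference stayed between -0.63 and -0.51 in these 6 fits, and over all 13 alternatives tried the adjusted p ran from 0.00689 to 0.156. The corresponding ranges of adjusted p were 0.0107 to 0.176 for the other Faah probe set, 0.0133 to 0.170 for the dim Cnr1 probe set and 0.00941 to 0.189 for Daglb, so that these 4 probe sets lay on either side of the threshold depending on the setting.

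**Figure D2:**
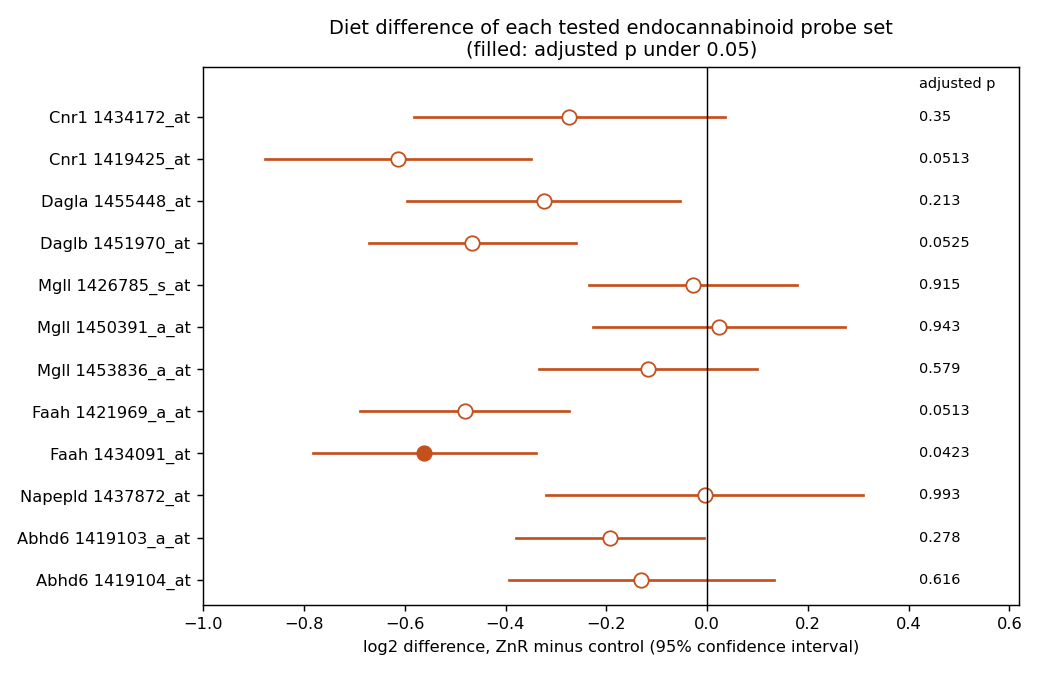
Log2 difference between ZnR and control mice (x axis) with its 95% confidence interval for the 12 tested probe sets (rows), with the limma adjusted p at the right and a filled point where it is under 0.05. Faah 1434091_at alone is filled at -0.56, with Faah 1421969_a_at, Daglb and Cnr1 1419425_at next to it in size.

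The hydrolases of 2-arachidonoylglycerol differed less. Mgll, which encodes monoacylglycerol lipase, the main such enzyme of axon terminals, was bright on 3 probe sets. Probe set 1426785_s_at, whose suffix marks probes that can match more than 1 transcript, measured 10.64, 10.61 and 10.45 log2 units in control mice 1, 5 and 9 and 10.48, 10.58 and 10.55 in ZnR mice 3, 7 and 11. The diets overlapped almost fully. The log2 difference was -0.03 ± 0.09 (SE, adjusted p = 0.915) there, 0.02 ± 0.11 on 1450391_a_at (adjusted p = 0.943) and -0.12 ± 0.09 on 1453836_a_at (adjusted p = 0.579; -0.07 without control mouse 1), and the 95% intervals of the 3 together spanned -0.33 to 0.27. The first 2 of these changed sign between alternatives, as values this close to 0 can. The fourth, 1431331_at, lay between 2.99 and 3.38 in all 6 mice and was not tested.

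Abhd6 encodes a hydrolase on the receiving side of the synapse, next to the site of synthesis. Its brighter probe set, 1419103_a_at, measured 10.04, 10.15 and 10.07 log2 units in control mice 1, 5 and 9 and 9.94, 9.89 and 9.86 in ZnR mice 3, 7 and 11. The diets did not overlap, but the log2 difference was small (-0.19 ± 0.08 SE, 95% interval -0.38 to -0.01, adjusted p = 0.278). The other, 1419104_at, measured 7.44, 7.50 and 7.44 in control mice and 7.44, 7.44 and 7.10 in ZnR mice. Only ZnR mouse 11 stood apart on it, and the log2 difference of -0.13 ± 0.11 (SE, adjusted p = 0.616) became -0.02 without that mouse.

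Signal from 18S ribosomal RNA divided the arrays across the diets, and this split was used as a possible batch. Control mouse 1 (9.09 log2 units) and ZnR mouse 3 (8.44) had low 18S signal, and the remaining 4 mice had 10.9 to 12.4. The 2 groups of arrays gave like differences for the receptor and for Dagla. Between the low-18S mice the dim Cnr1 probe set differed by -0.64 log2 units and between the others by -0.60, and for Dagla the values were -0.33 and -0.32. Daglb differed by -0.36 within the pair and -0.52 between the others. Faah 1434091_at differed by -0.36 within the pair and -0.66 between the others, and Faah 1421969_a_at by -0.40 and -0.52. With the pair as a block, 3 of the 12 probe sets passed, namely both for Faah (limma adjusted p = 0.043 for 1421969_a_at) and the dim one for Cnr1 (adjusted p = 0.0361). Without the pair, which leaves 2 mice per diet, none passed, and Faah 1434091_at had a difference of -0.66 with adjusted p = 0.124.

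**Figure D3:**
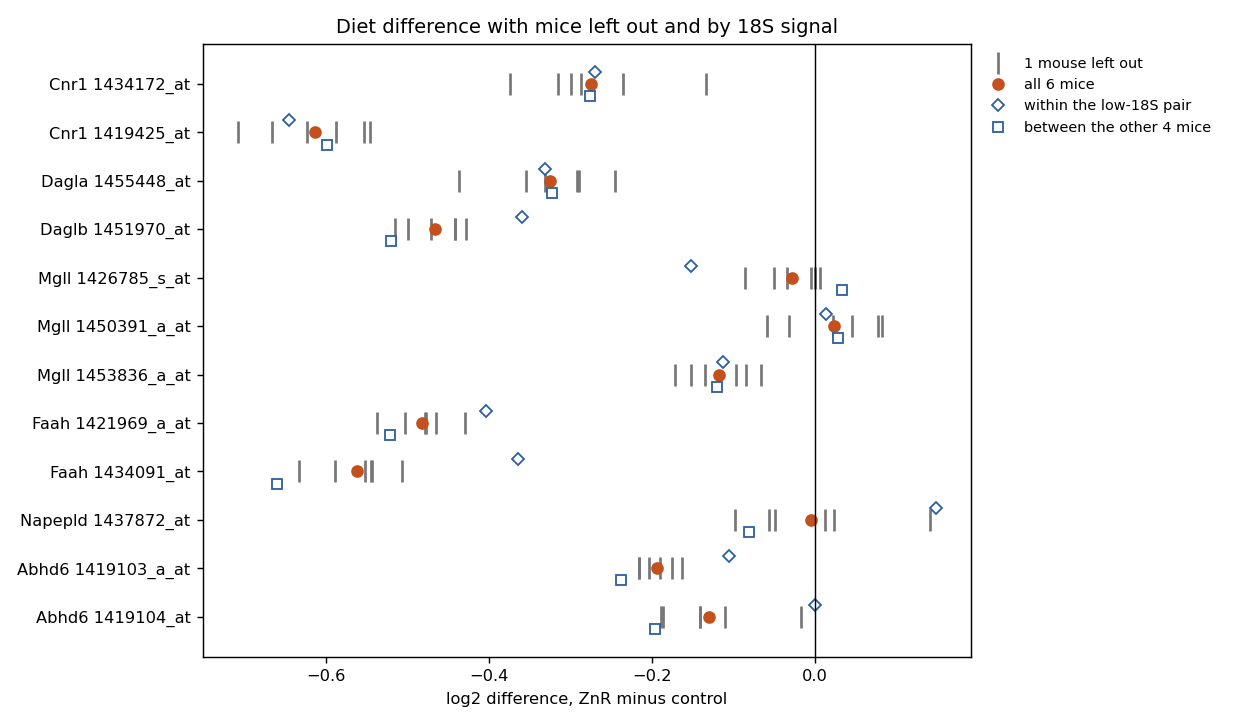
Log2 difference between ZnR and control mice (x axis) for the 12 tested probe sets (rows): orange points use all 6 mice, grey ticks leave out 1 mouse each, and blue open symbols give the difference inside the low-18S pair (diamonds) and among the remaining 4 mice (squares). All marks for Faah, Daglb, Dagla and Cnr1 lie below 0, and those for Napepld and 2 Mgll probe sets lie on both sides of it. The mark of Abhd6 1419104_at inside the low-18S pair lies just above 0, at 0.00099.

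The tissue's own markers were checked beside these values, in lists chosen with earlier results of these data known. Each gene was read by its brightest probe set, and 1.92% of all 11749 genes read so passed in either direction. Of 7 listed markers of cortical excitatory neurons, which express Cnr1 and Dagla, 6 were measured, 5 fell and 1 did not pass. Their mean log2 level was 9.04 to 9.16 in control mice and 8.04 to 8.24 in ZnR mice. Markers of striatal medium spiny neurons, which lie close to the dissected area and express both genes strongly, ran the other way. Of 10 listed 8 were measured, 2 rose and 6 did not pass, with a mean log2 level of 10.6 to 11.1 in control and 11.3 to 11.5 in ZnR mice. Markers of choroid plexus and ependyma, which line the ventricles, had 7 of 8 measured, of which 2 rose, at 4.06 to 4.96 in control and 5.45 to 5.65 in ZnR mice. Ccdc153, counted there, cleared the level filter through the ZnR mice alone (4.11 to 4.23, and 3.06 to 3.91 in control mice). Its place in the list thus depended on its ZnR level. Ttr, also near the filter, overlapped between the diets (log2 difference 0.66, limma adjusted p = 0.529). No astrocyte, oligodendrocyte, oligodendrocyte precursor, microglia, endothelial or leptomeningeal marker passed as lower, and 1 of 7 astrocyte markers, Gfap, rose. All measured markers of oligodendrocytes (6, median log2 difference 0.37) and their precursors (5, 0.34) were higher on average in ZnR mice. So were all those of astrocytes (7, 0.13), endothelium (5, 0.13) and leptomeninges (3, 0.88). The 6 measured microglia markers were all lower on average (median -0.11). In bulk tissue, fewer cells of a type and less RNA per cell cannot be told apart, and the part of these shifts in the differences of Faah, Daglb and Cnr1 was not tested.

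Beyond the 7 genes, 60 genes of the wider pathway were listed in 6 groups, also with earlier results of these data known. Of these 41 were measured, 12 lay below the level filter and 7 were not analysed here. With each gene read by its brightest probe set, 2 of the 41 fell, none rose and 39 did not pass, where 1.92% of all 11749 genes passed. Leaving out control mouse 5 gave 0 of the 41, and leaving out any other mouse gave 1, which was Cck. Their median log2 difference was -0.07, beside 0.03 over all genes, and 25 of the 41 (61.0%) were lower on average, beside 42.4% of all genes.

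The other receptors of these lipids that were read, Cnr2, Gpr18, Trpv1, Ppara and Pparg, lay below the level filter. Cnr2, the cannabinoid receptor of immune cells, lay between 2.34 and 2.63 log2 units in all mice, and Trpv1, a channel that anandamide opens, between 2.47 and 2.71. Of the genes of CB1 partners, 3 were measured. Cnrip1, whose protein binds the tail of CB1, measured -0.26 ± 0.10 (log2 difference, SE, adjusted p = 0.241), while its dimmer probe set measured 0.00. Sgip1, whose protein slows the uptake of CB1 from the membrane, measured -0.13 ± 0.08 and Gprasp1, which sorts receptors to lysosomes, 0.07 ± 0.08 (0.04 without ZnR mouse 11). None of these 3 measured genes passed.

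None of the 6 other measured enzymes of synthesis and breakdown passed, with a median of -0.02. Naaa, which encodes the lysosomal hydrolase of anandamide-like lipids, was higher on average in ZnR mice, where Faah was lower. It measured 6.80, 6.89 and 6.91 log2 units in control mice 1, 5 and 9 and 7.34, 7.26 and 7.21 in ZnR mice 3, 7 and 11. The diets did not overlap, and the log2 difference was 0.40 ± 0.08 (SE, adjusted p = 0.0637). Its dimmer probe set measured 0.29 ± 0.13 with overlap between the diets (adjusted p = 0.326). Abhd4 and Gde1, which encode enzymes of a route to anandamide that does not need Napepld, measured 0.21 ± 0.09 and -0.11 ± 0.08 (adjusted p = 0.294 and 0.526).

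Of the 5 measured genes of oxidation and lipid transport, Ptgs2 fell and 4 did not pass. Ptgs2 encodes cyclooxygenase 2, an inducible enzyme that also oxidises endocannabinoids. It measured 9.09, 9.25 and 9.24 log2 units in control mice 1, 5 and 9 and 8.39, 8.47 and 7.78 in ZnR mice 3, 7 and 11. All ZnR mice were lower, mouse 11 most. The fall was 1.98-fold (log2 difference -0.98 ± 0.18 SE, adjusted p = 0.04999), and Ptgs2 fell on probe set 1417263_at as well (-0.94 ± 0.16 SE, adjusted p = 0.0396). The call on the first was lost on leaving out any 1 of the 6 mice (adjusted p from 0.0679 without ZnR mouse 7 to 0.16 without control mouse 5) and when the low-18S pair was a block (0.0538). Fabp7, a fatty acid binding protein of astrocytes that can carry anandamide, measured 0.36 ± 0.12 (adjusted p = 0.184), and Fabp3, a related carrier, -0.18 ± 0.09 (adjusted p = 0.378).

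The signals that start synthesis run from glutamate and acetylcholine receptors through Gq proteins and phospholipase C. None of the 10 measured genes of that group passed, and their median was -0.10. Homer1, which encodes a scaffold linking a glutamate receptor to the lipase encoded by Dagla, measured -0.45 ± 0.14 (SE, adjusted p = 0.155), with -0.06 inside the low-18S pair and -0.65 among the remaining mice. Its other 5 probe sets measured from -0.68 to -0.06. Camk2a, whose kinase phosphorylates and restrains that lipase, measured -0.18 ± 0.08 (adjusted p = 0.289), and its other 4 probe sets were lower as well, from -0.73 to -0.23, without passing. The phospholipase gene Plcb3 measured 0.26 ± 0.10 (adjusted p = 0.242).

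Nor did any of the 12 measured effectors of CB1 pass when read by the brightest probe set, with a median of -0.09. Rims1, which encodes an active zone protein needed for CB1-dependent long-term depression of release, measured -0.48 ± 0.09 (SE, adjusted p = 0.0513), but it fell on 1438305_at (-0.59 ± 0.09 SE, adjusted p = 0.0292). The potassium channel gene Kcnj3 measured -0.78 ± 0.17 (adjusted p = 0.0714) and the adenylyl cyclase gene Adcy1 -0.43 ± 0.10 (adjusted p = 0.0828). All 3, named for the smallest p of the list, separated the diets without overlap. Of the 12 measured effectors 5 had no overlap in either direction, where 23.7% of all probe sets tested had none. That share counts every probe set, and the share over the brightest probe set of each gene was not computed. The 2 other probe sets of Kcnj3 measured -0.67 and -0.56, and that of Adcy1 measured -0.28.

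Genes of GABA terminals and of cholecystokinin basket cells, the interneurons known for the densest CB1, split in direction. Cck, the cholecystokinin gene, measured 12.13, 12.02 and 12.07 log2 units in control mice 1, 5 and 9 and 10.94, 11.06 and 11.08 in ZnR mice 3, 7 and 11. The gap between the diets was far wider than the spread within either. The fall was 2.06-fold (log2 difference -1.04 ± 0.08 SE, limma adjusted p = 0.00624). It was lost without control mouse 5 (adjusted p = 0.0686) and without the low-18S pair (0.0797), and passed in the other 12 of 14 alternatives. Excitatory neurons of cortex also express Cck, so its level does not read basket cells alone. The vesicular GABA transporter gene Slc32a1 (0.56 ± 0.11 SE, adjusted p = 0.0607) and the GABA synthesis gene Gad2 (0.39 ± 0.11 SE, adjusted p = 0.119) were higher on average, without overlap between the diets, and did not pass. Both serve GABA neurons in general, so neither reads basket cells alone. The 8 measured striatal medium spiny neuron markers were also higher on average (median 0.53), and a link was not tested. Gad1 measured 0.12 ± 0.10 (SE, limma adjusted p = 0.615) on its brightest probe set, with overlap. Its other probe set measured 0.36 ± 0.12 (SE, limma adjusted p = 0.171), without overlap. Of the 5 measured genes of the group 1 fell and 4 did not pass, and 4 were higher on average. The diets did not overlap on 4 of the 5, in either direction, where 23.7% of all probe sets tested had no overlap. Here too the share counts every probe set, not the brightest of each gene.

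**Figure D4:**
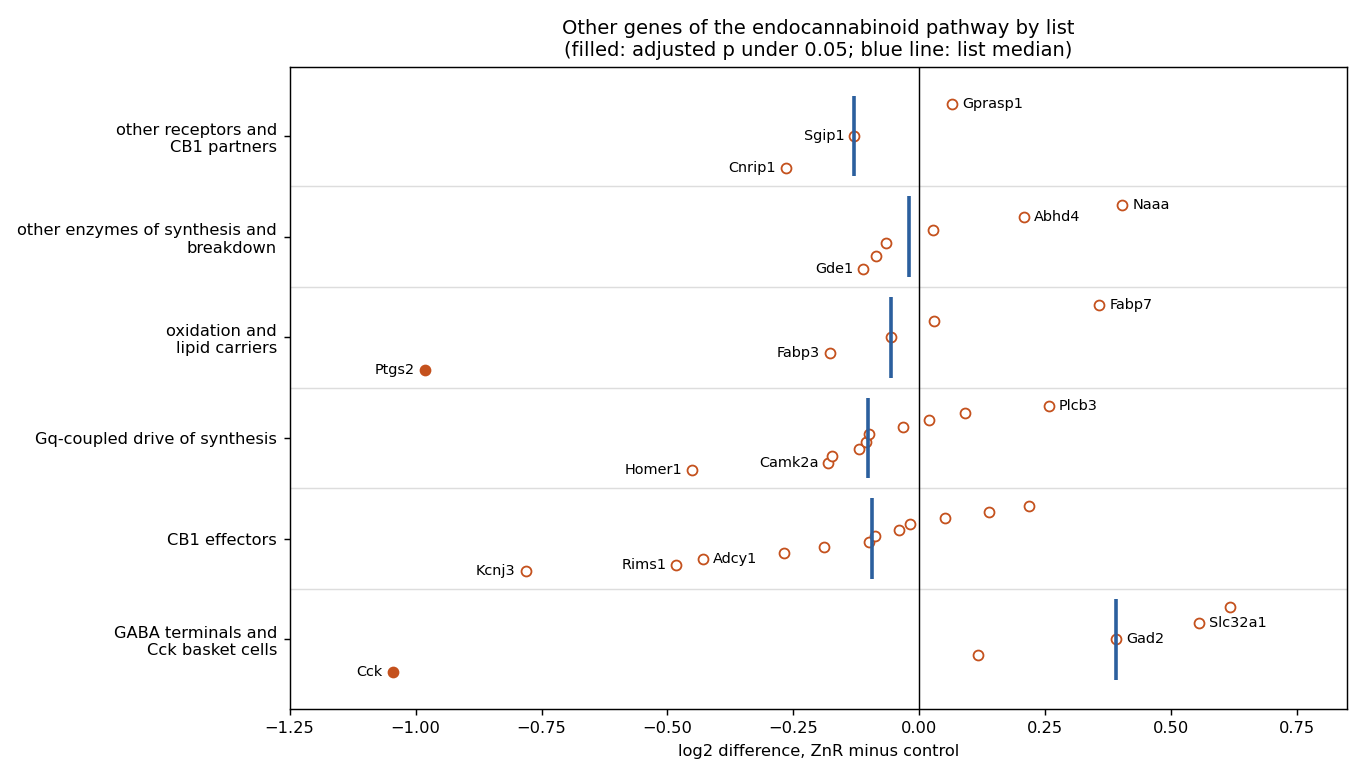
Log2 difference between ZnR and control mice (x axis) for 41 measured genes of the wider pathway in 6 lists (rows), with the list median as a blue line, a filled point where the limma adjusted p is under 0.05, and the named genes written beside their points. Ptgs2 (-0.98) and Cck (-1.04) are filled, and the list of GABA terminals and Cck basket cells is the one with a median above 0 (0.39).

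The genes whose levels over the 6 arrays were most like those of each member were found by Pearson correlation among 11748 other genes, as a description only. For Faah (1421969_a_at) they were Acta1 (0.992), Rtn4r (0.991) and Camk2a (0.991), and for Daglb they were Dlgap4 (0.989), C230057M02Rik (0.989) and Acta1 (0.986). With 6 arrays in 2 diets such values are common: 327 genes exceeded 0.9 for Faah and 340 for Daglb. Fewer did so for the bright Cnr1 probe set (88, led by 4931428F04Rik and Poldip2), Dagla (83, led by Cacng7 and Brsk2), Abhd6 (211, led by Vps13a and Pgap4), Napepld (59, led by Cbarp and Crim1) and Mgll (49, led by Pik3cd and 1600014C10Rik).

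The start regions of the genes with a probe set past or next to the threshold are shown to let their makeup be compared. The 250 bases before the annotated start were taken from RefSeq (build GRCm38.p6, strain C57BL/6J, which is not the strain of these mice), 5′ to 3′ on the gene's strand. Of the 7 genes 6 matched, with 10 start windows; Dagla had no entry. Cnr1 has 3 windows, of which the first is shown. Capitals mark matches, on either strand, to the GC box GGGCGG, the core of the metal response element (TGCACNC or TGCGCNC), which the zinc sensor MTF1 binds, and TGACG, a part of the cyclic AMP response element.
Faah, chr4:116017925-116018174, minus strand: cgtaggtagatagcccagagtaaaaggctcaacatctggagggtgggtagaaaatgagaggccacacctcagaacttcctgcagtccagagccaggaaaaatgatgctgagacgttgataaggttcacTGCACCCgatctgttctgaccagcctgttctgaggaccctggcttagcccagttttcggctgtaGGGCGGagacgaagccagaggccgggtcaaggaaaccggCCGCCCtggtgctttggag
Daglb, chr5:143464243-143464492, plus strand: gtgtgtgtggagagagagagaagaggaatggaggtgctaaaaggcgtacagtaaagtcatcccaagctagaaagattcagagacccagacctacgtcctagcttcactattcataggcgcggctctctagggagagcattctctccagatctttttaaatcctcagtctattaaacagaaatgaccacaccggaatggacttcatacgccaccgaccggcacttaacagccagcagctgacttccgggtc
Cnr1, chr4:33924014-33924263, plus strand: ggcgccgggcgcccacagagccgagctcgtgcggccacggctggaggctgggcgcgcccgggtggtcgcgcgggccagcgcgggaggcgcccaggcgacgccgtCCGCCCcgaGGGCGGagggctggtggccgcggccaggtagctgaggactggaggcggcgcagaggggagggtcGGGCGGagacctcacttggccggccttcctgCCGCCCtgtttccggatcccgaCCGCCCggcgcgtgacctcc

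The matches differed between the windows shown. The first Cnr1 window held 5 GC boxes and was 79.2% G and C, at or above 98.6% of all 32851 windows of the table. The other 2 Cnr1 windows held none, at 68.8% and 49.2% G and C. The Faah window held 2 GC boxes and 1 metal response core, TGCACCC, which begins 122 bases before the start, at 55.6% G and C. The Daglb window held no match, at 49.2% G and C, close to the median of 52.4% over all windows. A GC box is in 32.7% of all windows, a metal response core in 21.4% and TGACG in 17.8%. None of the 10 windows held TGACG or the full TGACGTCA, which is in 1.55% of all windows. The metal response core was also in windows of Napepld (1 match), Mgll (1 in its first and 5 in its second) and Abhd6 (1 in its second), whose levels did not pass the test. A match of letters is a description, not a binding site.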

How the data were processed

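Biotinylated targets were made from 500 ng of total RNA per mouse and read on 1 array each, per the labels' protocols. The values deposited by the authors are log2 expression per probe set, 1 column per mouse. Per the submitters' processing notes, GCRMA 2.28.0 was among the tools, with R 2.15.1. GCRMA corrects background by probe sequence, equalises the arrays' distributions and compresses low values, so a change in total RNA cannot be seen. Probe sets were named from the platform annotation (34945 with 1 symbol), updated by Entrez identifier to GRCm38.p6 symbols; no build is named for the values.

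After leaving out 64 array controls and applying the level filter, which kept 56.4% of the others, the diets were contrasted, ZnR minus control, by lmFit and eBayes of limma 3.58.1 under R 4.3.3 (2-sided, no covariate). P-values were adjusted by Benjamini and Hochberg's method across 25381 probe sets, with a threshold of 0.05. Standard errors and intervals are moderated; folds are 2 raised to the log2 difference. The script was tested on simulated data. Pathway genes were read by their brightest kept probe set. Every member probe set was named, with the past-threshold and up to 3 smallest-p genes of each pathway list and the 3 genes most like each member. Members and lists were chosen with earlier results of these data known. Figures were made with Python 3.11.15 and matplotlib 3.10.9. The alternatives were the level filter, scaling, variance trend, array weights, the low-18S pair, each mouse left out and averaged probe sets.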

Additional observations from a re-analysis of the deposited data

How the results depend on the processing

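No paired analysis was made, because the diets share no mouse number and the labels state no pairing. Over all probe sets 373 passed, of which 256 or 68.6% were lower; of the members 1 passed and of the pathway genes 2. Without a level filter, members and pathway genes gave the same counts. A filter at log2 above 6 left Faah, Napepld and the dim Cnr1 probe set untested, and 5 pathway genes and 1 member (Daglb, adjusted p = 0.0335) passed. Renewed quantile normalization or median centring gave 4 members each (both Faah probe sets, Daglb and the dim Cnr1 one). A variance trend gave 916 probe sets (61.2% lower), 2 members and 7 pathway genes, and array weights gave 2003 (54.6% lower), 4 and 10. The low-18S pair as a block gave 3 members, and leaving it out gave 1 probe set, 0 members and 0 pathway genes. Averaging a gene's probe sets gave 5 pathway genes.

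Leaving out each mouse gave 1 to 109 probe sets, 0 members in all 6 fits and 0 to 1 pathway genes, the lowest without control mouse 5. In these fits Mgll 1426785_s_at ranged from -0.086 to 0.0063, Mgll 1450391_a_at from -0.058 to 0.083 and Napepld from -0.10 to 0.14. Array weights turned Mgll 1450391_a_at to -0.021 and Napepld to 0.086, and leaving out the low-18S pair turned Mgll 1426785_s_at to 0.034. No other member probe set and no named pathway gene changed sign in these alternatives. The cause of a moved count was not tested in any of these fits. The number of arrays, 3 per diet, limits the precision of all these values.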
